A study of Rattus norvegicus with 10 samples.

Results

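A set of 10 genes widely used to mark astrocytes, the star-shaped glial cells of the brain, was followed through a time course of chemically stimulated rat hippocampal cultures. They were taken by gene symbol (Vim, Gfap, Sox9, Aqp4, Slc1a2, Slc1a3, Gja1, Aldoc, Atp1b2 and Cd44), and all 10 have a row in the deposited table of 11615 genes. The cultures came from the hippocampus of Wistar rats and were at day 15 in vitro. All of them, controls included, had received fluorodeoxyuridine and uridine on day 4, a mixture that stops dividing cells and was given against glial growth. Stimulated cultures were bathed in a solution for chemical long-term potentiation (cLTP, a treatment that strengthens synapses across a whole dish) and taken 5, 10, 60 or 120 min later, and mock cultures were given the matching mock solution. Each of the 5 groups had 2 biological repeats, called replicate 1 and replicate 2. No source used here gives the collection time of the mock cultures.

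Astrocytes take up the glutamate that neurons release, buffer potassium and water, pass metabolites to neurons and share ions through gap junctions. Vim and Gfap encode intermediate filament proteins of the astrocyte cytoskeleton, and Sox9 encodes a transcription factor that sets and keeps glial identity. Slc1a2 and Slc1a3 encode the glutamate transporters GLT-1 and GLAST, Aqp4 a water channel, Gja1 the gap junction protein connexin 43, Aldoc the brain form of the glycolytic enzyme aldolase, Atp1b2 a beta subunit of the sodium pump that also acts in cell adhesion, and Cd44 a cell surface receptor for hyaluronan. Vim, Sox9, Gja1 and Cd44 are also made by other cell types, Vim and Cd44 by fibroblasts and Cd44 by microglia among them.

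The astrocyte genes were abundant although the labels call the cells neurons. In mock, Gfap took 1.07% of all reads and ranked 1 of 11615 genes by reads, Vim ranked 3 with 0.519% and Aqp4 ranked 9 with 0.300%. Slc1a3 ranked 20, Aldoc 26, Gja1 66, Slc1a2 604, Cd44 825, Atp1b2 1025 and Sox9 2150. These ranks are of reads, which grow with transcript length, and no level was compared between genes per length. At least 3632 reads stood behind every value of the 10 genes. Neuronal transcripts were present as well: all 20 neuron markers examined were in the table, with a summed level of 6309 to 6582 in the mock libraries, where levels are CPM (each library's reads brought to the same total), rescaled by trimmed-mean (TMM) factors. Library totals, worked out from the smallest step between the CPM values of each library, ran from 32961534 to 54040657 reads. The read numbers behind single values rest on these totals. The TMM factors ran from 0.970 to 1.02.

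Over the time course 5 of the 10 genes rose, 1 fell and 4 did not pass the test at any time. By 120 min Cd44 had risen 3.04-fold, Sox9 1.35-fold, Vim 1.34-fold, Gfap 1.13-fold and Slc1a3 1.10-fold against mock, and Atp1b2 had fallen to 0.778 of mock. Aqp4, Slc1a2, Gja1 and Aldoc differed from mock by -0.05 to 0.05 on the log2 scale at 120 min, with adjusted p from 0.55 to 0.85. Calls required an adjusted p under 0.05 (Benjamini-Hochberg, across 11615 genes) in limma, which pooled the spread of all 10 libraries on the log2(TMM-scaled CPM + 1) scale. At 120 min 20.4% of all genes were called higher and 16.9% lower beside the 5 higher and 1 lower of these 10. The median log2 change of the 10 genes was 0.09, and that of all genes -0.01.

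**Figure D1:**
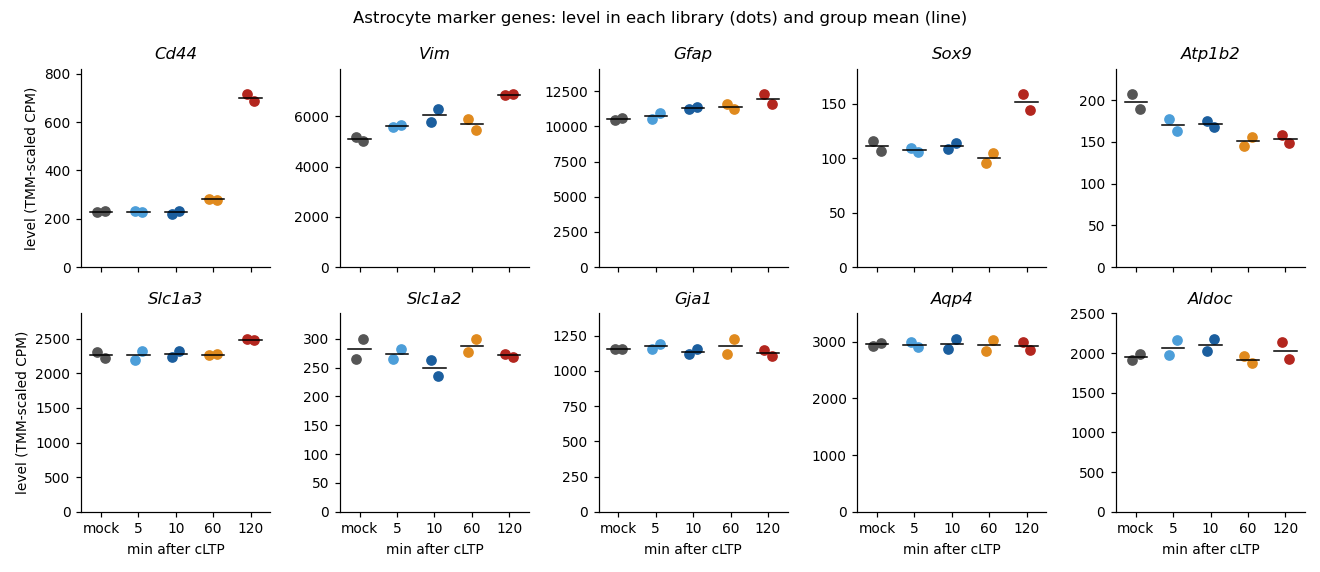
Level of each of the 10 astrocyte marker genes (vertical axis, TMM-scaled CPM, starting at 0) in every library (dots) by group (mock and min after cLTP), with the group mean as a line. Cd44 at 120 min (687 and 714) stands far above its other 8 libraries, and Atp1b2 is below both mock libraries in all 8 cLTP libraries.

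Cd44, the hyaluronan receptor, changed most. Its gene lies on chromosome 3, minus strand, from 92696292 to 92783658 in rat build rn6. Its level was 226 and 233 in the mock libraries, 231 and 228 at 5 min, 221 and 233 at 10 min, 280.1 and 279.9 at 60 min, and 714 and 687 at 120 min. Both libraries of 60 min were above all 6 of mock, 5 min and 10 min, and both of 120 min were above those of 60 min, with no overlap. The rise at 60 min was 1.22-fold (log2 0.29, SE 0.04, limma adjusted p = 0.00075), and at 120 min 3.04-fold with a 95% interval of 2.86 to 3.24 (log2 1.61, SE 0.04, adjusted p = 6.4e-11). The step between these times was 2.50-fold (120 min against 60 min, adjusted p = 1.1e-09). In the 20 other settings tried, the log2 change at 120 min ran from 1.54 to 1.63 and passed in all of them. Of all genes in the table, 85 (0.732%) had a larger rise at 120 min.

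The promoters were searched for 2 short motifs, in the 250 bases before each gene start in RefSeq's promoter windows on build GRCr8. A window was matched by symbol for 9 of the genes, all but Sox9. The motifs were TGANTCA, bound by AP-1 factors, and TTCNNNGAA, bound by STAT factors. Each reads the same on both strands, so a match on one strand is a match on both. Matches of the pair shared no base in these genes, since only one of the motifs was found. TGANTCA was found in 1 of 9 genes, Gja1, against 6.99% of 27457 genes, and TTCNNNGAA in 0 of 9 against 8.19%. The 250 bases before Cd44 (chr3:109699425-109699674, minus strand), the gene with the largest change, and before Gja1 (chr20:36302314-36302563, plus strand), the only one with a match, are shown 5′ to 3′ with the match in capitals. The match begins 58 bases before the Gja1 start.
Cd44: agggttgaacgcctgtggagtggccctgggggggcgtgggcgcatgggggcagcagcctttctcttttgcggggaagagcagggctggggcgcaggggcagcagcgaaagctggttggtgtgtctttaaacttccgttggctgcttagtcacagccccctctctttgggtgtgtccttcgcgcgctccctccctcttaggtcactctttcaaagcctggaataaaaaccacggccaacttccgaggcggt
Gja1: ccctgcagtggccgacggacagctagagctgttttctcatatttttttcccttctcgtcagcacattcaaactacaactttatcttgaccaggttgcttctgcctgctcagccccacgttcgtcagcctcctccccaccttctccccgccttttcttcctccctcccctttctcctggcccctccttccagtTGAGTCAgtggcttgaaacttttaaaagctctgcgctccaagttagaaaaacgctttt

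The search describes letters only. Cd44, which rose 3.04-fold, has neither motif in this window, and Gja1, which has one, was at 0.976 of mock at 120 min (adjusted p = 0.62). A window without a match says nothing of sites elsewhere.

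The intermediate filament gene Vim was higher at 120 min. It lies on chromosome 17, plus strand, from 80882715 to 80891200 (rn6). It stood at 5195 and 5014 in mock, 5588 and 5664 at 5 min, 5787 and 6280 at 10 min, 5891 and 5459 at 60 min, and 6853 and 6870 at 120 min. All 8 cLTP libraries were above both mock libraries, and those of 120 min were the highest. Only the last time passed: the log2 change was 0.14 at 5 min (adjusted p = 0.27), 0.24 at 10 min (adjusted p = 0.25), 0.15 at 60 min (adjusted p = 0.18) and 0.43 at 120 min (SE 0.06, adjusted p = 0.00014). The 120 min level was 1.34-fold that of mock, with a 95% interval of 1.23 to 1.47, and 1.21-fold that of 60 min (adjusted p = 0.0032). The differences of 10 min from 5 min (adjusted p = 0.43) and of 60 min from 10 min (adjusted p = 0.45) did not pass.

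Gfap, the filament gene most specific to mature astrocytes, moved less than Vim. It lies on chromosome 10, minus strand, from 90990762 to 90999435 (rn6). Its level was 10473 and 10568 in mock, 10548 and 10964 at 5 min, 11235 and 11366 at 10 min, 11561 and 11242 at 60 min, and 12274 and 11609 at 120 min. Both libraries of each time from 10 min on were above both mock libraries. The 120 min change was 1.13-fold, with a 95% interval of 1.04 to 1.23 (log2 0.18, SE 0.06, adjusted p = 0.023), while 60 min did not pass (adjusted p = 0.32). The call at 120 min was lost without mock replicate 1 (adjusted p = 0.13), without mock replicate 2 (adjusted p = 0.11), without 120 min replicate 1 (adjusted p = 0.16) and with scaling by library totals alone (log2 0.12, adjusted p = 0.052). The ratio of Vim to Gfap reads within a library, which no scaling changes, was 0.496 and 0.474 in mock and 0.558 and 0.592 at 120 min. It was higher in both 120 min libraries than in any other library (0.474 to 0.552). The margin between 120 min replicate 1 (0.558) and 10 min replicate 2 (0.552) was small, and the ratio was not tested.

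The transcription factor gene Sox9 had a late rise. It lies on chromosome 10, plus strand, from 101288528 to 101294028 (rn6). Its level was 116.1 and 106.7 in mock, 109.6 and 106.0 at 5 min, 108.5 and 113.9 at 10 min, 95.1 and 105.0 at 60 min, and 158.5 and 144.0 at 120 min. The 60 min libraries were the lowest group and lay below both mock libraries, with a log2 difference of -0.15 that did not pass (adjusted p = 0.23). At 120 min the level was 1.35-fold that of mock, with a 95% interval of 1.23 to 1.49 (adjusted p = 0.00024). Against 60 min it was 1.51-fold (log2 0.59, SE 0.06, adjusted p = 2.7e-05). Both calls passed in all 20 other settings.

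Of the glutamate transporter genes, Slc1a3 was called at 120 min and Slc1a2 was not. Their changes were not tested against each other. Slc1a3 (chromosome 2, minus strand, 57860881 to 57935363, rn6) stood between 2198 and 2320 in the 8 libraries of mock, 5, 10 and 60 min and at 2495 and 2482 at 120 min. The 120 min libraries were thus the 2 highest of all 10, by a small margin: 1.10-fold over mock, with a 95% interval of 1.02 to 1.18 (log2 0.14, SE 0.05, adjusted p = 0.037), and log2 0.13 over 60 min (adjusted p = 0.043). This call was the least stable of the 5 rises. The 120 min change lost it without mock replicate 1 (adjusted p = 0.074), mock replicate 2 (adjusted p = 0.23), 120 min replicate 1 (adjusted p = 0.14) or 120 min replicate 2 (adjusted p = 0.12), with library totals (log2 0.07, adjusted p = 0.17) and with no intensity trend in the variance (adjusted p = 0.059). The difference from 60 min missed the threshold in 9 of the 20 settings, among them those without any 1 of the mock, 60 min or 120 min libraries (adjusted p from 0.066 to 0.15). Slc1a2, which is on chromosome 3, plus strand, from 92518679 to 92665731 (rn6), was at 264 and 299 in mock and at 273.5 and 268.5 at 120 min (log2 -0.05, 95% interval -0.20 to 0.10, adjusted p = 0.58). Its lowest libraries were those of 10 min, at 263 and 236, both under mock (log2 -0.17, adjusted p = 0.45). The ratio of Slc1a3 to Slc1a2 within a library was 8.74 and 7.43 in mock and 9.12 and 9.24 at 120 min. It was 9.85 in 10 min replicate 2, above both 120 min libraries. Slc1a2 and Cd44 face each other on opposite strands of chromosome 3 with 30560 bases between their annotated ends in rn6, and had log2 changes of -0.05 and 1.61 at 120 min.

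Atp1b2, the sodium pump subunit, was the member that fell. It lies on chromosome 10, minus strand, from 56205622 to 56211857 (rn6). Its level was 206.7 and 189.2 in mock, 177.6 and 162.7 at 5 min, 175.0 and 168.1 at 10 min, 145.5 and 155.4 at 60 min, and 158.3 and 149.1 at 120 min. Every cLTP library was below both mock libraries, and the libraries of 60 and 120 min were below those of 5 and 10 min. The log2 change was -0.22 at 5 min (adjusted p = 0.19), -0.20 at 10 min (adjusted p = 0.31), -0.39 at 60 min (SE 0.06, adjusted p = 0.0011) and -0.36 at 120 min (SE 0.06, adjusted p = 0.0006). Without 5 min replicate 1 the 5 min change was -0.28 and passed (adjusted p = 0.026). The levels of 60 and 120 min did not differ beyond their spread (adjusted p = 0.72), and the difference of 60 min from 10 min missed the threshold (log2 -0.19, adjusted p = 0.096). The calls at 60 and 120 min passed in all 20 other settings.

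Across the settings tried, the calls at 120 min fell into a firm and a less firm set. Those of Cd44, Sox9, Vim and Atp1b2 passed in all 20, that of Gfap in 16 and that of Slc1a3 in 14. No called change turned its direction in any of them.

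**Figure D2:**
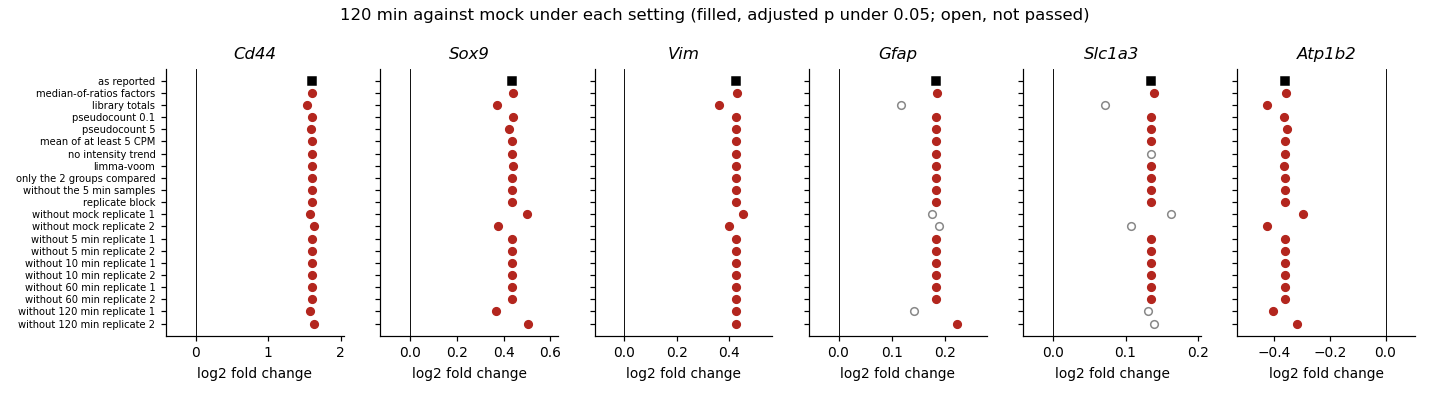
Log2 fold change at 120 min against mock (horizontal axis of each panel, with its own scale) of the 6 called genes, as reported (black square) and in 20 other settings (circles, filled where the adjusted p was under 0.05 and open where it was not). Cd44, Sox9, Vim and Atp1b2 passed in all 20, Gfap in 16 and Slc1a3 in 14.

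The water channel, gap junction and aldolase genes showed no change past the threshold. Aqp4 (chromosome 18, minus strand, 6766009 to 6782757, rn6) stood between 2840 and 3049 in all 10 libraries, with overlap of every time with mock. Its 120 min interval on the log2 scale was -0.13 to 0.10. Gja1 (chromosome 20, plus strand, 37876650 to 37889094) was at 1154 in both mock libraries and between 1103 and 1226 in the others, with an interval of -0.14 to 0.07 at 120 min. Aldoc (chromosome 10, plus strand, 65586504 to 65590093) was at 1918 and 1985 in mock and at 2134 and 1921 at 120 min, with an interval of -0.09 to 0.19. A p above the threshold does not show that the levels were equal, and these intervals give the size of change that the libraries leave possible.

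**Figure D3:**
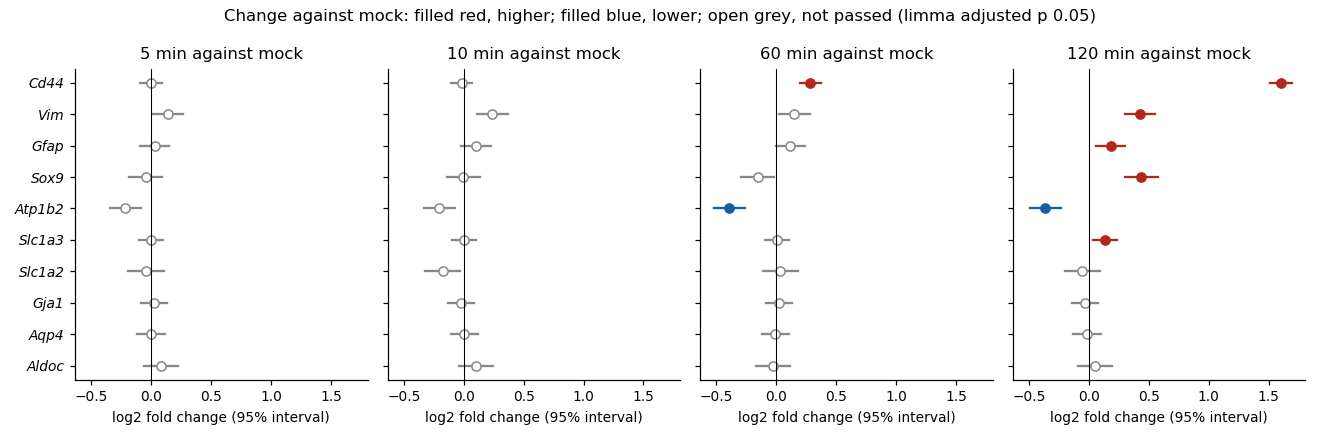
Log2 fold change against mock of the 10 genes (points) with 95% limma intervals (bars), in 1 panel for each of 5, 10, 60 and 120 min. Filled points passed the adjusted p of 0.05: none at 5 or 10 min, Cd44 (0.29) and Atp1b2 (-0.39) at 60 min, and 6 genes at 120 min.

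Counted by time, most calls were at 120 min. At 5 min limma called 0 of the 10 genes in either direction (background 0% higher and 0% lower), 2 had an unadjusted p under 0.05 (Vim and Atp1b2), and limma-voom called 0 as well. The early counts rest on 1 library: without 5 min replicate 1, Atp1b2 was called lower at 5 min, beside 110 genes higher and 588 lower over the whole table. At 10 min it again called 0, beside a background of 0.0344% higher (4 genes) and 0% lower. At that time 3 of the 10 had an unadjusted p under 0.05 (Vim, Slc1a2 and Atp1b2) and limma-voom called 0. At 60 min Cd44 was higher and Atp1b2 lower, against 4.64% of all genes higher and 1.95% lower. Against the preceding time, the rise of Cd44 from 10 to 60 min was the 1 called difference (background 3.7% higher and 1.93% lower). From 60 to 120 min Cd44, Sox9, Vim and Slc1a3 rose, 4 of 10 against 19.8% of all genes, and 16% of all genes fell. Tested for a change at any time together, 4 of the 10 passed (Cd44, adjusted p = 9.7e-11, Sox9, 0.00015, Vim, 0.0013, and Atp1b2, 0.0017), against 41.3% of all genes, and Gfap (0.091) and Slc1a3 (0.088) did not. Without 5 min replicate 2, or without both 5 min libraries, 6 of the 10 passed this joint test, Gfap and Slc1a3 among them.

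The authors' deposited table, which holds its own comparison of each time with mock, calls more of the 10 genes early at an adjusted p under 0.05. In the authors' deposited table Vim is higher (log2 0.24, adjusted p = 0.00048) and Atp1b2 lower (log2 -0.21, adjusted p = 0.049) already at 10 min. At 60 min the authors' deposited table holds Vim, Gfap and Cd44 higher and Atp1b2 lower, and at 120 min the same 6 genes as above. The log2 changes for Vim at 10 min and Atp1b2 at 10 min in limma were 0.24 and -0.20, so the tables differ there in the p-value and not in the size.

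Other genes that share a function or a cell type with these 10 were examined in lists, each without the 10 themselves. Genes reported to rise in reactive astrocytes, mostly after injury or inflammation in rodents, were higher in large number: of 25 measured, 19 rose, 1 fell and 5 did not pass at 120 min, with a median log2 change of 1.01, where 20.4% of all genes rose and 16.9% fell. At 60 min 14 had risen, with a median of 0.41, where 4.64% of all genes rose. Ptx3, a secreted pentraxin, went from 12.9 ± 1.5 (SD, n = 2) in mock to 104.7 ± 0.2 at 60 min and 302.7 ± 11.3 at 120 min, a 21.8-fold rise (adjusted p = 2.2e-11). The cytokine gene Clcf1 rose 16.6-fold by 120 min (59.0 ± 2.7 against 2.64 ± 0.74, adjusted p = 4.9e-10) and the membrane protein gene Emp1 7.38-fold (206.8 ± 2.7 against 27.2 ± 1.8, adjusted p = 2.2e-11). All folds are from the log2(TMM-scaled CPM + 1) scale. For low genes they therefore lie nearer to no change than the ratios of the printed means. At 60 min the chemokine gene Cxcl10 was 8.08-fold (adjusted p = 1.2e-07) and the sphingosine kinase gene Sphk1 3.51-fold above mock (adjusted p = 1.6e-07). Among genes chosen after their values were seen, C3 (1.18-fold, adjusted p = 0.16) and Lcn2 (1.25-fold, adjusted p = 0.31), which are often used to mark reactive astrocytes, did not pass at 120 min. Many genes of this list are also expressed by other stimulated cells, and these data do not tell which cells made the transcripts.

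Other genes used to mark astrocytes moved in both directions. Of 28 measured, 6 rose, 7 fell and 15 did not pass at 120 min, beside 20.4% and 16.9% of all genes, with a median log2 change of -0.00. The largest rises were those of Dio2, the deiodinase that activates thyroid hormone (39.4 ± 3.7 against 9.81 ± 1.76, 3.76-fold, adjusted p = 1e-07), and Ezr, encoding ezrin, which links membrane to actin (727.7 ± 12.8 against 307.5 ± 11.2, 2.36-fold, adjusted p = 2.1e-09). Kcnj10, the potassium channel Kir4.1, fell to 0.704 of mock (27.1 ± 0.4 against 39.0 ± 3.2, adjusted p = 0.00023). Genes chosen after their values were seen include Aldh1l1 (0.917-fold, adjusted p = 0.15), Glul, encoding glutamine synthetase (1.04-fold, adjusted p = 0.36), and S100b (1.08-fold, adjusted p = 0.25), none of which passed. At 60 min Dio2 (2.68-fold, adjusted p = 3.3e-06) and Ezr (1.29-fold, adjusted p = 0.00036) were already up, and Id3, a transcriptional inhibitor, was at 0.683 of mock (adjusted p = 3.8e-05).

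**Figure D4:**
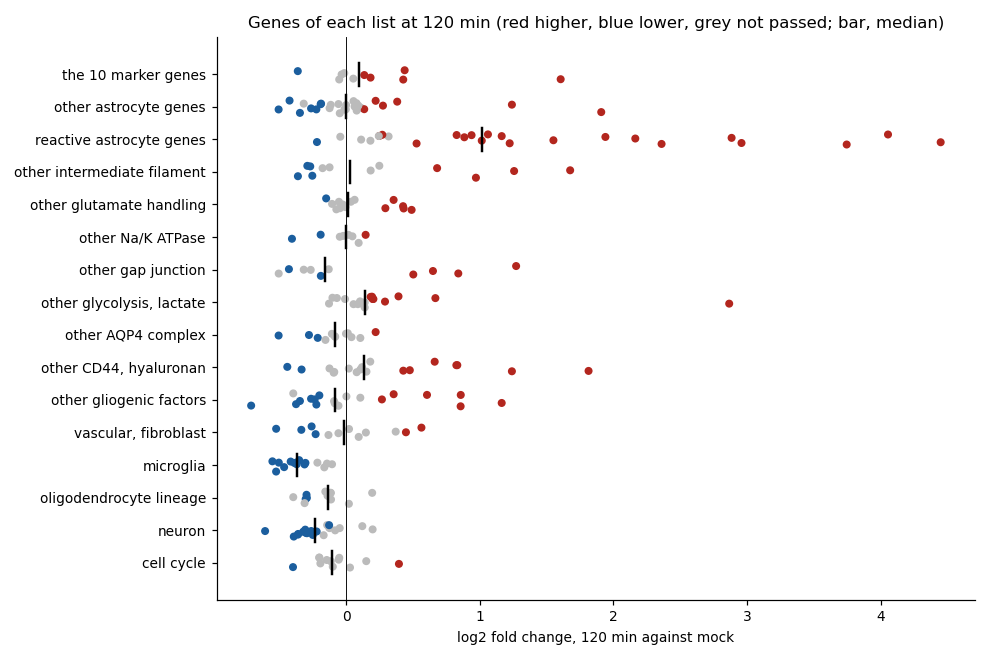
Log2 fold change at 120 min against mock (horizontal axis) for every measured gene of the 10 marker genes and of 15 related lists (points, with called rises in red, called falls in blue and genes that did not pass in grey), and the median of each list (black bar). The median of the reactive list stands at 1.01 and that of the other lists between -0.37 (microglia) and 0.14 (glycolysis and lactate).

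Around the filament pair, 4 of 12 other filament genes rose and 4 fell at 120 min (all genes, 20.4% and 16.9%). The nuclear lamin gene Lmna rose 3.20-fold (298 ± 9 against 92.5 ± 0.4, adjusted p = 1e-09) and Nes, the nestin gene of neural progenitors and reactive astrocytes, 2.39-fold (746 ± 51 against 311.2 ± 6.3, adjusted p = 2.3e-09). Nes was already 1.14-fold above mock at 60 min (adjusted p = 0.045). The epithelial keratin gene Krt8 rose 1.96-fold from a low level (30.1 ± 0.7 against 14.9 ± 1.3, adjusted p = 1.2e-05). Among the 4 that fell, looked up after the values were seen, were the neurofilament genes Nefm (0.778-fold, adjusted p = 0.0024) and Nefh (0.817-fold, adjusted p = 0.00082), which neurons make.

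Of 18 other genes for hyaluronan, its binding proteins and the linkers between membrane and actin, 7 rose and 2 fell at 120 min (all genes, 20.4% and 16.9%), and 11 rose and 4 fell from 60 to 120 min (all genes, 19.8% and 16%). Besides Ezr, the linker gene Msn (moesin) rose 1.58-fold (280.0 ± 1.6 against 176.6 ± 5.7, adjusted p = 1.2e-07) and Tmem2, a cell surface hyaluronidase gene also named Cemip2, 1.77-fold (107.2 ± 1.0 against 60.1 ± 1.2, adjusted p = 7.4e-08). Tnfaip6, whose product modifies hyaluronan in inflamed tissue, was at 13.1 ± 0.5 at 60 min against 7.62 ± 0.19 in mock (1.64-fold, adjusted p = 0.0017). Has1, Has2 and Cemip have no row in the table used here.

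Beside Sox9, 6 of 19 other transcription factor genes of glial fate rose and 7 fell at 120 min (all genes, 20.4% and 16.9%), while 8 had risen and 1 fallen at 60 min (all genes, 4.64% and 1.95%). Stat3, the signal transducer that drives Gfap expression in developing astrocytes, rose 1.33-fold at 60 min (adjusted p = 0.00012) and 2.24-fold at 120 min (667.7 ± 15.4 against 297.5 ± 10.1, adjusted p = 3.3e-09). Hes1, a Notch target, was 2.24-fold above mock at 60 min (20.6 ± 0.5 against 8.62 ± 0.12, adjusted p = 8e-07). At 120 min Id1 was 1.81-fold above mock (adjusted p = 4.4e-05) and Id2 was at 0.611 of mock (64.0 ± 5.7 against 105.2 ± 3.0, adjusted p = 3.4e-06), both inhibitors of helix-loop-helix factors.

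Of 14 other genes of glutamate uptake and handling, 5 rose and 1 fell at 120 min, where 20.4% of all genes rose and 16.9% fell. They were led by the neutral amino acid transporter genes Slc1a4 (1.40-fold, adjusted p = 1.3e-05) and Slc1a5 (1.35-fold, adjusted p = 0.00035) and the cystine and glutamate exchanger gene Slc7a11 (1587 ± 1 against 1295 ± 6, 1.23-fold, adjusted p = 0.00024). Of 8 other sodium pump genes, 1 rose and 2 fell, beside the same shares of all genes. Atp1b3, another beta subunit, was 1.11-fold above mock (188.8 ± 1.6 against 170.6 ± 1.3, adjusted p = 0.017).

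Of 10 other gap junction genes, 4 rose and 2 fell at 120 min, where 20.4% of all genes rose and 16.9% fell. The pannexin gene Panx1 rose 1.57-fold (adjusted p = 1.4e-05). The endothelial connexin gene Gja4 rose 2.41-fold on the log2(TMM-scaled CPM + 1) scale, from a low level (10.4 ± 3.5 against 3.65 ± 0.76, adjusted p = 0.00015). Among 12 other water channel and dystroglycan complex genes 1 rose and 3 fell, beside the same shares. Mlc1, a membrane protein gene of astrocyte endfeet, rose 1.17-fold (2569 ± 105 against 2204 ± 3, adjusted p = 0.0093). Among 18 other glycolysis and lactate genes 8 rose and 10 did not pass, against 20.4% of all genes that rose. Hk2, an inducible hexokinase gene, rose 7.29-fold (136.3 ± 2.4 against 17.9 ± 2.5, adjusted p = 1.9e-10), the glucose transporter gene Slc2a1 1.59-fold (adjusted p = 2e-06) and Ldha, for lactate dehydrogenase, 1.31-fold (adjusted p = 0.0014).

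Markers of other cell types moved over the same times. The summed level of the 10 genes was 24746 to 24796 in mock and 28092 to 29204 at 120 min. The largest parts of this sum were Gfap (mean 10520.5 in mock and 11941.1 at 120 min) and Vim (5104.27 and 6861.58). The 28 other astrocyte genes summed to 29436 to 29539 in mock and 31056 to 32218 at 120 min. Their 120 min range overlapped those of 5 min (29638.5 to 31879.8) and 10 min (29854 to 31465.5). The 20 neuron markers summed to 6309 to 6582 in mock, 6451 to 6616 at 60 min and 5447 to 5687 at 120 min, and 12 of the 20 fell by 120 min, where 16.9% of all genes fell. Neurod6, a factor of excitatory neurons, was at 0.657 of mock (adjusted p = 7.5e-07), the RNA-binding protein gene Elavl4 at 0.762 (adjusted p = 0.00012), and Gad2, of inhibitory neurons, at 0.779 (adjusted p = 0.00023). The 15 microglia and macrophage markers summed to 343.9 to 351.6 in mock and 251.1 to 261.4 at 120 min, and 11 of 15 fell by then, against the same 16.9%, with C1qa at 0.695 (adjusted p = 0.00015), C1qb at 0.725 (adjusted p = 5.7e-05) and C1qc at 0.750 of mock (adjusted p = 0.00015). The 12 vascular and fibroblast markers with a row, of 17 listed, summed to 3409 to 3614 in mock, 2850 to 2976 at 60 min and 3190 to 3269 at 120 min. At 60 min 5 of these 12 fell and 0 rose, where 1.95% of all genes fell and 4.64% rose. At 120 min 4 fell and 2 rose, beside 16.9% and 20.4% of all genes. Pdgfrb was then at 0.695 of mock (adjusted p = 0.00013) and Col1a1, the fibroblast collagen gene, at 0.792 (adjusted p = 0.00091). Flt1, of endothelial cells, was 1.48-fold above mock at 120 min (adjusted p = 1.9e-06). The 5 without a row were Col1a2, Acta2, Pecam1, Cldn5 and Rgs5.

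The 13 oligodendrocyte lineage markers summed to 1627 to 1713 in mock and 1479 to 1528 at 120 min, and 3 of 13 fell, near the 16.9% of all genes. Olig2, of the oligodendrocyte lineage, was 2.00-fold above mock at 60 min (34.2 ± 0.3 against 16.6 ± 1.9, adjusted p = 1.6e-06), and Olig1 was 1.19-fold above it at 60 min and at 0.815 of it at 120 min (adjusted p = 0.00088). The 12 cell cycle markers summed to 528 to 595 in mock and 593 to 623 at 120 min, with Pcna 1.31-fold higher (adjusted p = 0.00032) and Mki67 at 0.759 of mock (adjusted p = 0.0046). Levels in a bulk sample are shares of all reads, so fewer cells of a type and less RNA per cell cannot be told apart. The part of these shifts in the changes of the 10 genes was not tested.

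**Figure D5:**
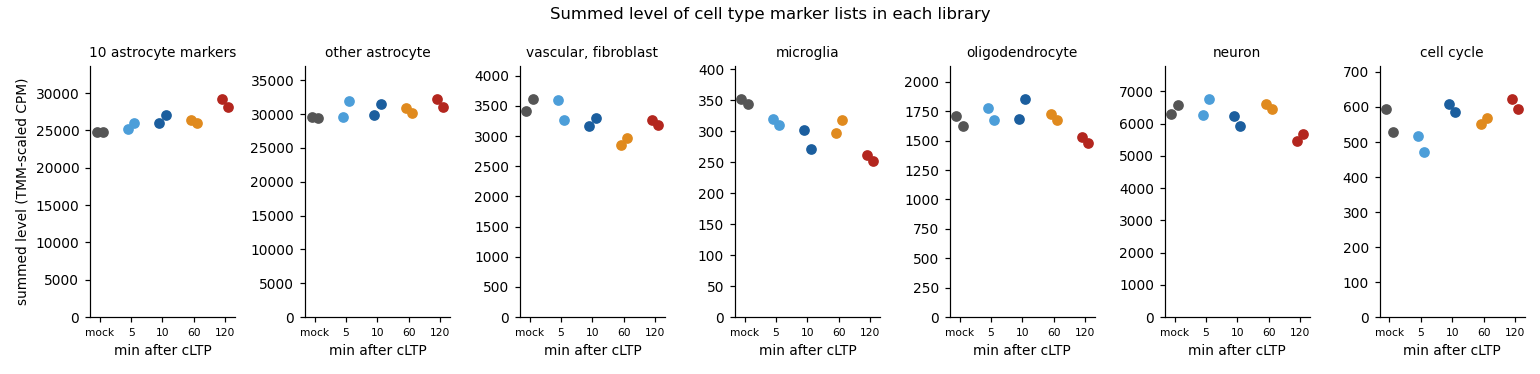
Summed level (vertical axis, TMM-scaled CPM, starting at 0) of 7 cell type marker lists in each of the 10 libraries (dots), by group. At 120 min the 10 astrocyte markers lie above all other libraries, and the microglia (251 to 261) and neuron lists (5447 to 5687) lie below all others.

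Across the 10 libraries the 6 genes that changed were partly alike. Pearson's r of the log2 levels was 0.89 for Slc1a3 with Cd44, 0.87 for Sox9 with Cd44 and with Slc1a3, and 0.86 for Vim with Gfap, and it was -0.77 for Gfap with Atp1b2. These values describe 10 libraries in 5 groups that share the times, and carry no p. Of all genes, those most like Cd44 were Agpat9 and Slc20a1 (r = 0.999 and 0.998), which rose from 23.5 to 70.2 and from 253.7 to 1205 between mock and 120 min. Those most like Vim were Ttc29 and Pdlim4 (both 0.95), those most like Gfap Tp53i13 and Clip2 (0.945 and 0.927), and those most like Sox9 Dtx3l and Prkcd (both 0.98). Dtx3l and Prkcd stood at 55.1 and 43.9 in mock, 45.7 and 36.2 at 60 min and 97.6 and 62.1 at 120 min. They were picked for likeness to Sox9, so a low level at 60 min like that of Sox9 is part of the choice. Slc1a3 was most like Isy1 and Kars (0.98 and 0.96) and Atp1b2 most like Gdf11 and Fam173b (0.97 and 0.96). For the 4 genes that did not pass at any time the values were Aldh6a1 and C1qtnf6 for Aqp4 (0.96 and 0.90), Mn1 and Robo1 for Slc1a2 (0.94 and 0.93), Mtdh and Ube2h for Gja1 (0.90 and 0.88), and Urod and Slc25a29 for Aldoc (both 0.93).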

How the data were processed

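RNA was sequenced from 10 cultures in 5 groups of 2. The submitters' processing notes list TopHat2 2.1.0, HTSeq, bcl2fastq and edgeR, and build rn6. Whether counting used strand is not stated in the sources at hand. The authors deposited CPM (each library's reads brought to the same total) for 11615 genes. Per the file headers the table also gives a log2 change with raw and adjusted p-values for each time against mock, deposited by the authors. Copies of the mock values (6 columns) were not used. The lowest value listed was worth 9 to 20 reads.

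Deposited CPM were divided by TMM factors (30% of log ratios and 5% of levels trimmed), transformed as log2(CPM + 1), which understates changes of low genes, and fitted across all libraries (limma 3.58.1, R 4.3.3) with a mean for each group, a variance prior that follows intensity and 5 residual degrees of freedom. Tests were two-sided, with Benjamini-Hochberg adjustment over all genes. Values are TMM-scaled CPM and errors are SDs of 2 libraries. The labels call the samples biological repeats, and p-values measure the spread between them. CPM times the library total, itself worked out from the steps between CPM values, lay within 1.9e-09 of whole reads. The count tests named in the design for read counts were nevertheless not run here, and limma-voom on these read-scale values was an alternative. The script was tested on simulated data.

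The 10 genes and 15 related lists (272 entries, 246 matched) were chosen with earlier results of these data known. Named were all 10 genes, up to 3 called genes of each list by p at 60 and 120 min (up to 1 where none was called), and the 2 genes most correlated with each member; some genes this rule takes are not reported here. Alternatives changed scaling, pseudocount, filter, variance prior, test, samples and replicate block. Promoter sequences are RefSeq's, on GRCr8. Figures used matplotlib 3.10.9.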

Additional observations from a re-analysis of the deposited data

Results flagged for a closer look

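For 4 of the 10 genes the change against mock differed between 60 and 120 min by the direct limma test of 120 min against 60 min, whose log2 differences were 1.32 for Cd44 (adjusted p = 1.1e-09), 0.59 for Sox9 (adjusted p = 2.7e-05), 0.27 for Vim (adjusted p = 0.0032) and 0.13 for Slc1a3 (adjusted p = 0.043). In each of these genes both 120 min libraries were above both 60 min libraries. Sox9 was below mock at 60 min (log2 -0.15, adjusted p = 0.23) and above it at 120 min (log2 0.44, adjusted p = 0.00024). The difference of Slc1a3 missed the threshold in 9 of 20 other settings (adjusted p up to 0.15 without 120 min replicate 1).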

How the results depend on the processing

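Of 1380 values of the 10 genes under 20 other settings, 1360 kept their side of the threshold, 19 lost it, 1 gained it, and no called value changed its direction. With scaling by library totals 3 genes were higher at 120 min (Cd44, Sox9 and Vim) in place of 5. With 1 library left out in turn that count ran from 3 to 5, with 3 without mock replicate 1, mock replicate 2 or 120 min replicate 1, and the count lower at 5 min ran from 0 to 1, with 1 (Atp1b2) without 5 min replicate 1. Where a group was left with 1 library, that library was assumed to vary like the other groups.

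Library totals moved the median log2 change of all genes at 120 min from -0.01 to -0.07, and the share of calls that were higher from 54.7% to 36.4% at 120 min (1786 higher and 3123 lower), from 70.4% to 57.3% at 60 min, from 65.7% to 48.0% for 60 min against 10 min and from 55.2% to 46.7% for 120 min against 60 min. With 1 library left out, other counts over all genes moved by more than 1.5 times. At 5 min they went from 0 to 110 higher and 588 lower (without 5 min replicate 1), and at 10 min the higher count, 4, ran from 0 (without 10 min replicate 2) to 9 (without either 5 min library). At 60 min the higher count, 539, fell to 341 (without 60 min replicate 1) and the 227 genes called lower became 89 when mock replicate 1 was dropped, 94 without 60 min replicate 1 and 128 without 60 min replicate 2. At 120 min the 1960 genes called lower became 1106 and 1245 without 120 min replicate 2 and 1, and 1121 when mock replicate 2 was dropped. The lower count of 60 min against 10 min, 224, was 82 and 84 without 60 min replicate 1 and 2, 87 and 134 without 10 min replicate 2 and 1, and 344 and 340 without 5 min replicate 1 and 2, and that of 120 min against 60 min, 1864, fell to 1095 and 1114 without 120 min replicate 2 and 1, and to 1203 and 1207 without 60 min replicate 1 and 2. The cause was not tested.

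With the replicate number as a block, 3 genes in place of 4 were higher at 120 min than at 60 min (Slc1a3, adjusted p = 0.052), and the block changed no other call of the 10 genes. Over all genes, the block moved the calls of 10 min against 5 min from 1 higher and 0 lower to 128 higher and 2 lower. The numbers were not taken as pairs, since the labels do not say that a repeat number marks a shared culture day. Same-numbered libraries correlated at -0.164 to 0.273 in their deviations. Tests on read counts with edgeR and DESeq2 were planned and not run. With 2 libraries a group, small changes such as that of Slc1a3 lie near what the spread allows.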
